A study of Mus musculus with 28 samples.

Results

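miR-455 is a microRNA of cartilage whose hairpin yields 2 mature strands, the 5p arm and the 3p arm. Its levels are described here in mouse knee tissue after a joint-destabilizing operation. The rows of the deposited array table named mmu-miR-455-3p and mmu-miR-455-5p were taken by name, which gave 2 of 569 miRNA rows. The 3p row held a value on all 28 arrays. The 5p row held values on the 12 cartilage arrays and none on the 16 bone arrays, so the 5p arm is described in cartilage alone.

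A microRNA strand loaded into an Argonaute protein pairs through its seed, bases 2 to 8, with sites in mRNAs and lowers their stability or translation. Mir455 lies in an intron of Col27a1, which encodes a fibrillar collagen of cartilage, and with miR-140 it is known as a microRNA abundant in chondrocytes. In mouse and human chondrocytes both arms have been reported to repress Epas1 (HIF-2alpha), a transcription factor that drives cartilage-degrading enzymes. The 3p arm has also been studied as a regulator of the TGF-beta pathway.

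The mice were male C57BL6 animals aged 10 to 12 weeks at surgery. The destabilized animals had the ligament that anchors the medial meniscus cut in both knees (DMM, a model of post-traumatic osteoarthritis). In the sham animals that ligament was exposed and left whole. Cartilage and the underlying subchondral bone of the medial tibial plateau were laser-microdissected 6 weeks or 1 week later, and 70 ng of total RNA was put on Agilent mouse miRNA arrays, release 21. The 8 groups were DMM at 6 weeks, sham at 6 weeks, DMM at 1 week and sham at 1 week in each tissue. Cartilage groups held 3 arrays each, every array a pool of 3 mice. Bone groups held 4 arrays each, every array 1 mouse. The treatment text also mentions a mouse strain called Jaffa, but the strain label of all 28 samples is C57BL6. All groups had surgery, so there was no unoperated group.

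The mature arms and the 1 other mouse miRNA with the 5p seed are printed to show their seeds, in capitals. Sequences are from RefSeq (GRCm38.p6).
mmu-miR-455-5p: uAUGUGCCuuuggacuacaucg
mmu-miR-455-3p: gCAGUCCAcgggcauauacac
mmu-miR-5129-3p: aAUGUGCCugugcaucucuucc
The 5p arm is 22 nt long and lies on the plus strand at chr4:63256867-63256888, and the 3p arm is 21 nt long at chr4:63256904-63256924. They come from opposite sides of 1 hairpin, and a duplex prediction with RNAduplex joined them by 16 base pairs. The seeds of the arms differ, so each arm reads its own set of sites. Among 1679 RefSeq mouse mature names, 1 other miRNA, miR-5129-3p (chr2:45023110-45023131, minus strand), had the 5p seed and 0 had the 3p seed. miR-5129-3p had no row in the table, so no same-seed miRNA was measured beside either arm. The Mir455 gene (chr4:63256851-63256932, 82 bp) lies within Col27a1 (chr4:63214009-63334991), 35.4% of the way along that gene.

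All values below are log2 signals as deposited. The median signal of an array ran from 6.26 to 6.32 among the cartilage arrays and from 6.17 to 6.39 among the bone arrays. The median correlation of an array with the others of its group was 0.968 to 0.991 in cartilage and 0.883 to 0.984 in bone, the lowest being mouse WT68 of the sham bone group at 1 week. The tissue field of the cartilage samples names subchondral bone while their source field names cartilage, and the source field was followed. miR-140-3p, a defining miRNA of cartilage, averaged 13.41 ± 0.19 in the arrays named cartilage (SD, n = 12) and 9.34 ± 0.33 in the bone arrays (SD, n = 16). miR-140-5p averaged 11.95 ± 0.22 in cartilage and 8.21 ± 0.55 in bone (same n).

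miR-455-3p was a cartilage-rich miRNA in these data. It averaged 8.60 ± 0.27 in cartilage (SD, n = 12) and 5.64 ± 0.43 in bone (SD, n = 16), a difference of 2.95. The lowest, median and highest percentiles of the 3p arm among the 359 rows shared by both tissues were 79.1, 82.7 and 86.9 on the cartilage arrays, against 0.557, 16.4 and 41.8 on the bone arrays. The lowest cartilage array lay 1.82 above the highest bone array. How many of the other shared rows kept the tissues apart in this way was not counted. As deposited, 4 of the 359 shared rows had a larger excess in cartilage, namely miR-210-3p, a hypoxia-induced miRNA (4.16), miR-140-3p (4.07), miR-140-5p (3.74) and miR-125b-5p (3.26), while the median over all rows was -0.06. No source used here says if the tissues were normalized as 1 set, so this difference is a description with no test. It was 3.08 when the arrays were made equal by quantiles and 3.31 when each was centred at its 75th percentile.

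**Figure D1:**
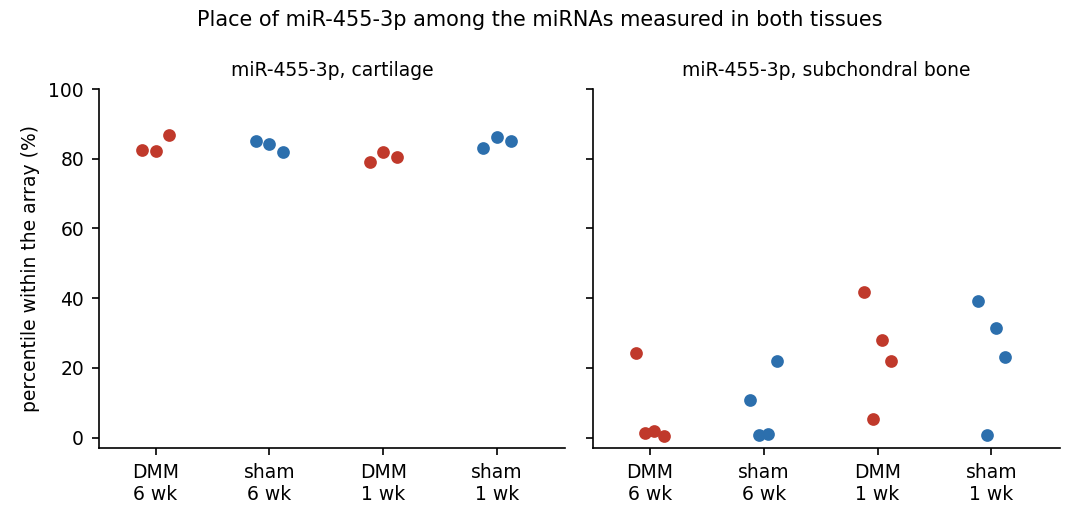
Percentile of miR-455-3p among the 359 miRNAs measured in both tissues on every array (vertical axis, percent of those rows below it), by group with DMM left of sham at each week, red for DMM and blue for sham. Each point is 1 array, and the cartilage arrays lie between 79.1 and 86.9 while the bone arrays lie between 0.557 and 41.8.

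Among the rows of its own tissue, 3p stood at percentiles of 82.6 to 89.3 in cartilage (438 rows) and 3.88 to 53.7 in bone (490 rows), and 5p at 54.8 to 75.8 in cartilage. Within cartilage the 3p arm exceeded the array median on 12 of 12 arrays, and so did the 5p arm, which averaged 6.93. In bone 3p exceeded the array median on 2 of 16 arrays and lay below the 10th percentile of that tissue's rows on 6 of 16. Scanner background values were not used here, so whether the low bone signals stood above background was not tested. In pieces of tissue, fewer chondrocytes and less miR-455 per cell cannot be told apart.

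The comparison of DMM with sham cartilage at 1 week asks how miR-455 stands at the onset of the disease. Both arms were lower in DMM cartilage, and the 5p arm passed the test. miR-455-5p had 6.83, 6.61 and 6.54 in the DMM pools, against 7.04, 6.84 and 7.30 in the sham pools. Means were 6.66 ± 0.15 in DMM and 7.06 ± 0.23 in sham (SD, n = 3 pools each), a difference of -0.40 ± 0.13 (SE, 95% interval -0.69 to -0.11), or 1.32-fold lower. The limma adjusted p was 0.0457 (unadjusted 0.0114) over 438 miRNAs. The groups were apart only just, with the highest DMM pool at 6.83 and the lowest sham pool at 6.84. P-values in cartilage measure the spread between pools.

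miR-455-3p had 8.18, 8.49 and 8.22 in the DMM pools at 1 week, against 8.59, 8.92 and 8.74 in the sham pools. The 3 DMM pools were below the 3 sham pools. Means were 8.30 ± 0.17 in DMM and 8.75 ± 0.16 in sham (SD, n = 3 each), a difference of -0.46 ± 0.17 (SE, 95% interval -0.84 to -0.08), or 1.37-fold lower. This did not pass the threshold in limma, with an adjusted p of 0.0726 (unadjusted 0.0229). In the same comparison 27.9% of the 438 miRNAs passed, 12.1% lower and 15.8% higher, and 23.3% had DMM pools all below sham pools. So 1 of 2 arms called, and both arms with groups apart, stand against a background in which such changes were common. The median difference of all miRNAs was -0.02, and 37 of 438 had a lower difference than 3p and 51 a lower one than 5p. Scaling moved the background: 69 miRNAs were higher and 53 lower as deposited. With quantile-normalized values 60 were higher and 75 lower, and with arrays centred at the 75th percentile 56 were higher and 86 lower.

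The calls at 1 week turned on single pools and on the array set. For 5p the adjusted p ranged from 0.0278 to 0.186 as each of the 12 cartilage arrays was left out, and 7 of those 12 fits lost the call: without sham pool 1 or 3 of week 1, without DMM pool 2 or 3 of week 1, and without DMM pool 1, 2 or 3 of week 6. The 5p difference stayed between -0.51 and -0.28. For 3p the limma adjusted p ranged from 0.0270 to 0.202 as each array was left out. Only 1 of those 12 fits called it, the fit without DMM pool 3 of week 6 (0.0270). It was called in 2 of 8 alternatives, with the 6 arrays of week 1 fitted alone (0.0253) and with arrays centred at the 75th percentile (0.0405). The limma adjusted p was 0.111 with a replicate block and 0.356 with all 28 arrays. The difference for 3p was between -0.55 and -0.37 with any 1 array left out.

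**Figure D2:**
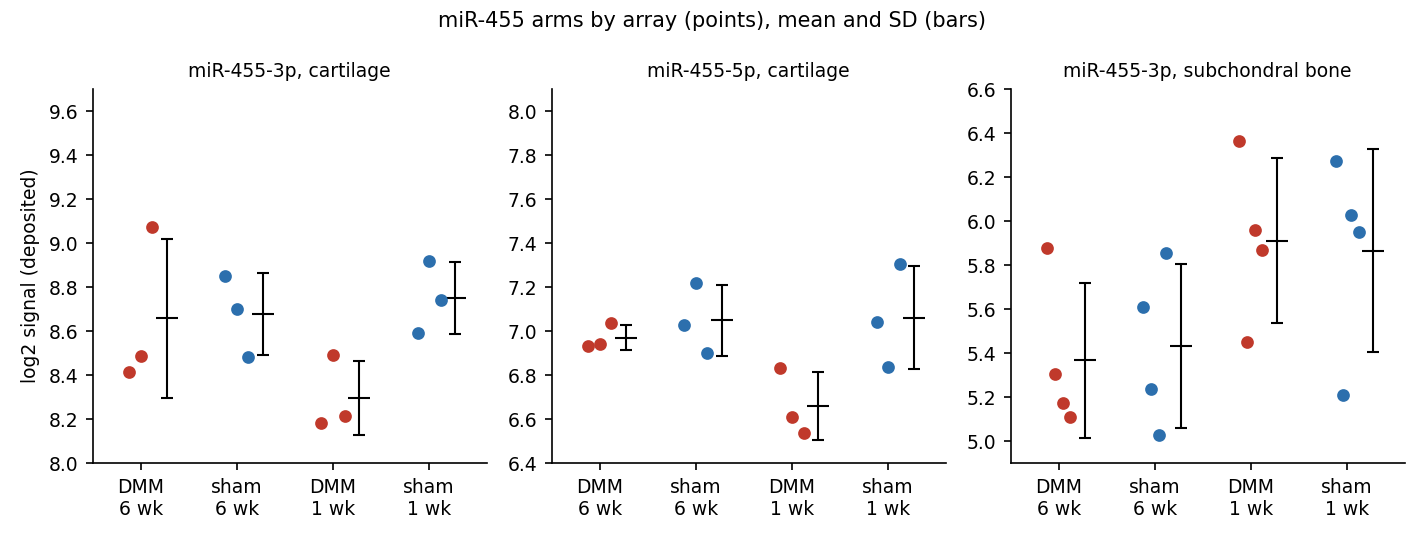
log2 signal of miR-455-3p in cartilage and bone and of miR-455-5p in cartilage on every array (vertical axis), by group with DMM left of sham at each week. Points are arrays, red for DMM and blue for sham, and bars are the mean and SD of a group. The DMM points of cartilage at 1 week lie below the sham points for both arms, and those of 6 weeks overlap the sham points.

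At 6 weeks, when the DMM joint has more advanced disease in this model, the arms were close to sham. miR-455-3p had 8.42, 8.49 and 9.07 in the DMM pools, against 8.85, 8.70 and 8.48 in the sham pools. One DMM pool was above every sham pool and the others were near or below the lowest. The mean was 8.66 ± 0.36 in DMM and 8.68 ± 0.19 in sham (SD, n = 3 each), a difference of -0.02 ± 0.17 (SE, 95% interval -0.40 to 0.36, limma adjusted p = 0.955). Without that high DMM pool (pool 3) the difference was -0.23 with an adjusted p of 0.296. With quantile normalization the difference was 0.05.

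miR-455-5p had 6.93, 6.94 and 7.04 in the DMM pools at 6 weeks, against 7.03, 7.22 and 6.90 in the sham pools. The groups overlapped. The difference was -0.08 ± 0.13 (SE, 95% interval -0.37 to 0.21, limma adjusted p = 0.723). At this week 16.9% of the 438 miRNAs passed the threshold, 7.31% lower and 9.59% higher, and neither arm did. The intervals reached down to -0.40 for 3p and -0.37 for 5p, so these arrays do not show that the arms were alike in DMM and sham.

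**Figure D3:**
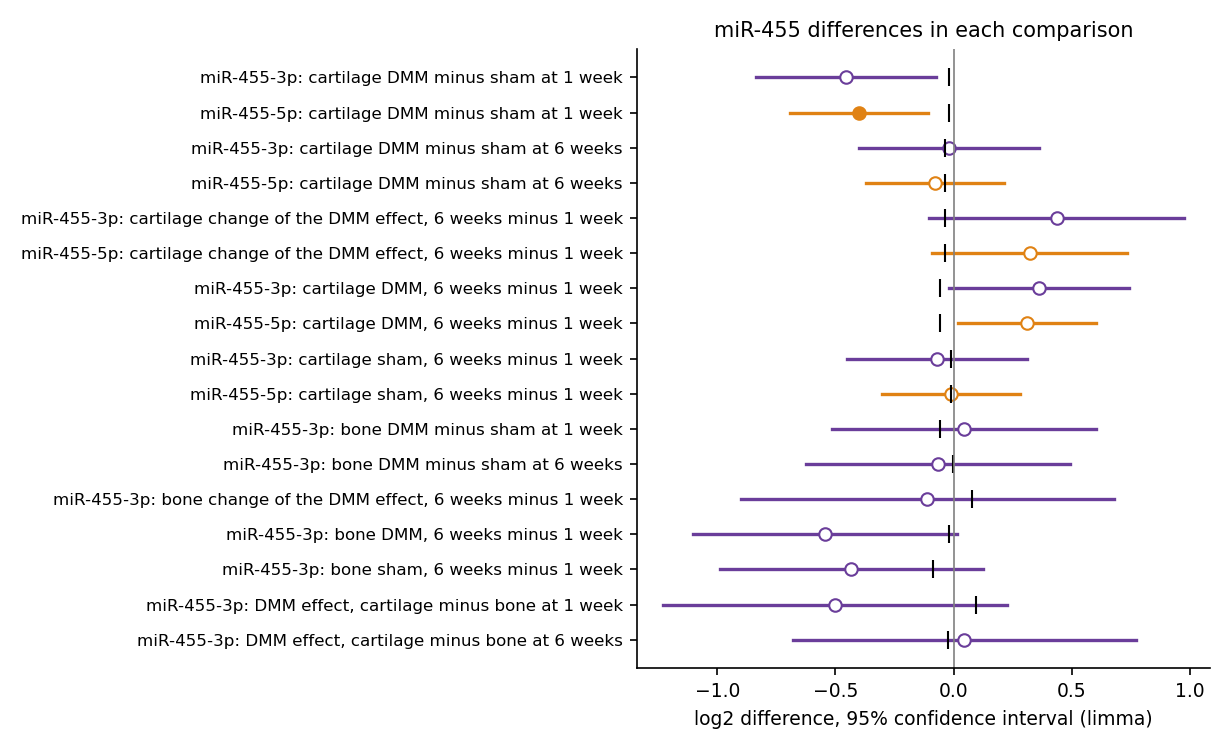
Difference of miR-455 between groups on the log2 scale (horizontal axis, first-named group minus second) for each comparison, with 95% intervals, purple for 3p and orange for 5p. A filled marker has a limma adjusted p under 0.05, and the black tick is the median of all miRNAs tested. Only 5p in cartilage at 1 week is filled, at -0.40.

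The change of the DMM effect between 6 weeks and 1 week was 0.44 ± 0.25 for 3p (SE, 95% interval -0.10 to 0.97, limma adjusted p = 0.999) and 0.32 ± 0.19 for 5p (SE, 95% interval -0.09 to 0.74, adjusted p = 0.999). The DMM effects at the 2 weeks are thus not shown to differ. In this comparison 0% of 438 miRNAs passed in limma, and 13 had an unadjusted p under 0.05. By the size of the change the arms stood near the top: 5 of 438 miRNAs had a higher value than 3p and 10 a higher value than 5p, while the median was -0.04. These sizes rest on single pools: without DMM pool 3 of week 6 the change for 3p was 0.23, and without sham pool 3 of week 1 that for 5p was 0.20. The miR-140 arms, which are the other cartilage-defining pair, were not tested against the miR-455 arms. The changes of the DMM effect for the miR-140 arms were -0.13 and -0.03, neither passing. Their DMM effects were -0.21 (3p, adjusted p = 0.186) and -0.27 (5p, 0.187) at 1 week, and -0.34 (3p, 0.0558) and -0.30 (5p, 0.156) at 6 weeks. None of these 4 passed.

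**Figure D4:**
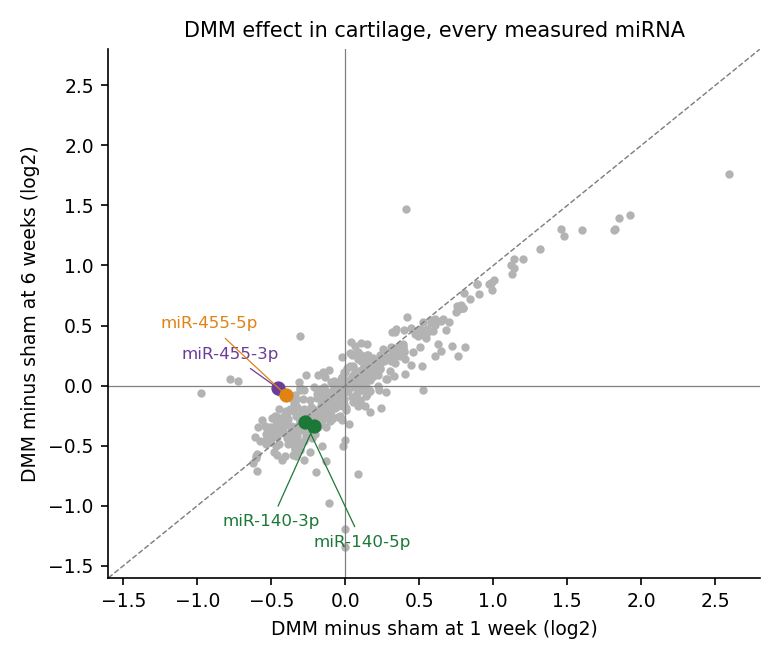
DMM minus sham difference in cartilage at 6 weeks (vertical axis, log2) against that at 1 week (horizontal axis, log2) for 438 miRNAs, each a point, with the miR-455 and miR-140 arms marked and equal values on the dashed line. The weeks have separate DMM and sham arrays. The miR-455 arms lie near 0 at 6 weeks and at -0.46 and -0.40 at 1 week, and the miR-140 arms lie below 0 at both weeks.

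Within 1 operation, 3p in DMM cartilage was 0.36 ± 0.17 higher at 6 weeks than at 1 week (SE, 95% interval -0.02 to 0.74, limma adjusted p = 0.252), and 5p was 0.31 ± 0.13 higher (95% interval 0.02 to 0.60, adjusted p = 0.194). Without DMM pool 3 of week 6 the 3p difference was 0.16 (adjusted p = 0.742). The 3p values of the weeks overlapped, while the DMM pools of 6 weeks were all above those of 1 week for 5p, as for 13% of miRNAs. In this comparison 4.79% of 438 miRNAs passed, 10 higher and 11 lower. With quantile-normalized values 24 were higher and 11 lower, and with an array left out 6 to 30 passed. In sham cartilage the difference of 6 weeks from 1 week was -0.07 ± 0.17 for 3p (adjusted p = 0.945) and -0.01 ± 0.13 for 5p (adjusted p = 0.994), with 0.228% of miRNAs past the threshold. The order of the group means was the same for both arms: sham at 1 week, sham at 6 weeks, DMM at 6 weeks and DMM at 1 week, from high to low. The sham groups and DMM at 6 weeks lay within the spread of their arrays, and the mean of DMM at 1 week stood below theirs.

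The arms are cut from 1 hairpin, and their difference within an array was compared between operations. The value of 3p minus 5p was 1.64 ± 0.27 in DMM and 1.69 ± 0.34 in sham pools at 1 week (SD, n = 3 each). The difference was -0.06 (exact permutation test, two-sided, p = 0.9, smallest possible 0.1). At 6 weeks it was 1.69 ± 0.30 in DMM and 1.63 ± 0.18 in sham, a difference of 0.06 (exact permutation p = 0.8). Over both weeks it was 1.66 ± 0.26 in DMM and 1.66 ± 0.25 in sham (SD, n = 6 each, exact permutation p = 0.995, smallest possible 0.005). The balance of the arms thus differed between operations by less than the spread between pools. With that spread and so few pools, a fall of 1 arm alone could go unseen, so the arms are not shown to move together. An array signal is not a copy number, so 3p is not ranked against 5p by level.

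**Figure D5:**
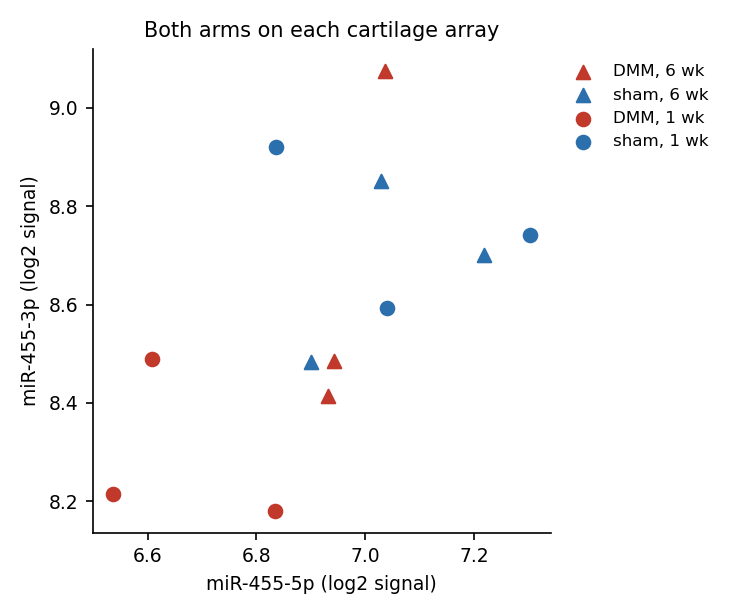
miR-455-3p (vertical axis, log2 signal) against miR-455-5p (horizontal axis, log2 signal) on the 12 cartilage arrays, red for DMM and blue for sham, triangles at 6 weeks and circles at 1 week. The correlation over the 12 arrays was 0.54, and the 3 DMM pools of 1 week have the 3 lowest 5p values.

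Over the 12 cartilage arrays the arms correlated with each other at 0.54 (Pearson r), which ranked 54 of 437 miRNAs for 3p and 89 of 437 for 5p. With group means taken out, the correlation was 0.05. The arrays share 4 groups, so these values are descriptions. The 5 miRNAs most like 3p were miR-204-5p (r = 0.801), miR-331-3p (0.785), miR-23b-3p (0.776), and the let-7 family members let-7b-5p (0.768) and miR-98-5p (0.764). The 5 most like 5p were miR-27b-3p (0.913), miR-331-3p (0.886), miR-101c (0.875), miR-350-3p (0.867) and miR-374c-5p (0.851). miR-331-3p was in both sets. These miRNAs were chosen on the same arrays, group differences included, so their own DMM differences are a description and no test. At 1 week the differences were -0.26 for miR-204-5p, -0.35 for miR-331-3p, -0.31 for miR-23b-3p, -0.46 for let-7b-5p and -0.49 for miR-98-5p. They were -0.34 for miR-27b-3p, -0.41 for miR-101c, -0.27 for miR-350-3p and -0.56 for miR-374c-5p. All 9 were below 0, as the choice makes likely. miR-140-3p correlated with 3p at 0.25 and with 5p at 0.56, and miR-140-5p with 3p at 0.43 and with 5p at 0.60. With group means taken out, miR-140-3p correlated with 5p at 0.86, rank 6 of 437, and with 3p at 0.15. For miR-140-5p these values were 0.60, rank 48, with 5p and 0.32 with 3p.

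Other miRNAs studied in chondrocytes were taken as a list of 35, of which 30 had cartilage values. At 1 week 1 of the 30 rose in DMM, miR-222-3p (0.52, limma adjusted p = 0.0107). Another 4 fell: miR-98-5p (-0.49), miR-337-3p (-0.39, adjusted p = 0.0494), miR-26b-5p (-0.34, adjusted p = 0.0253) and miR-210-3p (-0.33, adjusted p = 0.0490). Over all 438 miRNAs 15.8% rose and 12.1% fell, so the fallers are near the background share and the risers below it. The list was not tested as a set. The median of the 30 was -0.27 against -0.02 for all miRNAs, and 25 of 30 were below 0 against 238 of 438. At 6 weeks 0 rose and 2 fell, miR-210-3p (-0.59, adjusted p = 0.00662) and miR-26b-5p (-0.44, adjusted p = 0.0130). Over all 438 miRNAs 9.59% rose and 7.31% fell, so the fallers are again near the background share and the risers below it. The median was then -0.20 against -0.04 for all, with 27 of 30 below 0 against 244 of 438.

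Marker miRNAs of other cell types that the dissected tissue could hold were read on the same arrays as log2 of their summed signal. At 1 week the fibroblast or mesenchymal markers (3 of 5 measured) were at 10.15 to 10.80 in DMM and 10.68 to 10.80 in sham cartilage. The muscle markers (3 of 4 measured) were at 7.03 to 7.31 in DMM and 7.22 to 8.10 in sham, but they went opposite ways: miR-206-3p rose in DMM (0.53, limma adjusted p = 0.0107), while miR-1a-3p was at -0.97 and miR-133a-3p at -0.73, neither passing. Erythroid markers (2 of 3 measured) were at 7.58 to 7.99 in DMM and 7.41 to 8.27 in sham, leukocyte markers (2 of 4) at 7.50 to 8.12 in DMM and 7.22 to 8.21 in sham, and the endothelial marker (1 of 2) at 5.36 to 7.24 in DMM and 5.82 to 6.37 in sham. The summed miR-140 arms were at 13.65 to 13.99 in DMM and 13.88 to 14.18 in sham. Their sum at 6 weeks was 13.55 to 13.78 in DMM and 13.95 to 14.01 in sham, and neither miR-140 arm passed at either week. At 6 weeks the erythroid markers were at 7.75 to 8.55 in DMM and 8.50 to 10.18 in sham, and both miR-451a (-1.34, limma adjusted p = 0.0465) and miR-486a-5p (-0.50, adjusted p = 0.0283) fell. The leukocyte markers were then at 7.18 to 7.98 in DMM and 7.95 to 9.45 in sham. Of these miR-223-3p fell (-1.19, limma adjusted p = 0.0465), and miR-142a-3p was at -0.98 (adjusted p = 0.0566). The fibroblast or mesenchymal markers at 6 weeks were at 9.88 to 10.65 in DMM and 10.62 to 10.87 in sham. All 3 measured were below 0 for DMM minus sham, and none passed. The endothelial marker was at -0.74 for DMM minus sham at 6 weeks and did not pass. The muscle markers at 6 weeks were at 7.12 to 8.59 in DMM and 7.18 to 7.98 in sham. Among them miR-206-3p rose again (0.53, limma adjusted p = 0.0166), while the others measured were at 0.04 and -0.06, neither passing. The part of all these in the miR-455 values of either week, and in their change between weeks, was not tested.

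In bone the 3p arm showed no difference between operations that passed. At 1 week it had 6.36, 5.45, 5.96 and 5.87 in the DMM mice WT67, WT77, WT85 and WT93, against 6.27, 5.21, 6.03 and 5.95 in the sham mice WT66, WT68, WT86 and WT96. The groups covered the same range. The difference was 0.04 ± 0.26 (SE, 95% interval -0.51 to 0.60, limma adjusted p = 0.999). At 6 weeks 3p had 5.88, 5.30, 5.17 and 5.11 in the DMM mice WT5, WT6, WT21 and WT25, against 5.61, 5.24, 5.03 and 5.86 in the sham mice WT10, WT12, WT22 and WT26. The groups again overlapped, with a difference of -0.07 ± 0.26 (95% interval -0.62 to 0.49, limma adjusted p = 0.998). With array weights the difference was -0.53 (adjusted p = 0.0617) at 6 weeks and -0.31 (adjusted p = 0.154) at 1 week, in fits that called 54 and 38 of 490 miRNAs. In limma 0% of 490 miRNAs passed at either week, with 3 and 2 at an unadjusted p under 0.05 at 1 and 6 weeks. The change of the effect between weeks was -0.11 ± 0.37 (adjusted p = 1.00), in a comparison where 0% passed in limma and 1 miRNA had an unadjusted p under 0.05. From high to low the bone groups were DMM at 1 week, sham at 1 week, sham at 6 weeks and DMM at 6 weeks, and all their ranges overlapped.

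Over time, 3p in bone was lower at 6 weeks than at 1 week in both operations, without passing. The difference was -0.54 ± 0.26 in DMM bone (SE, 95% interval -1.10 to 0.01, limma adjusted p = 0.265) and -0.43 ± 0.26 in sham bone (95% interval -0.99 to 0.13, adjusted p = 0.422). In limma 0% of 490 miRNAs passed in either, and 95 in DMM and 54 in sham had an unadjusted p under 0.05. Fitted with array weights, the DMM difference was -0.68 with an adjusted p of 0.00178, but that fit called 274 of 490 miRNAs, 147 higher and 127 lower. The summed mesenchymal markers of bone (5 of 5 measured) were 10.37 to 10.55 in DMM and 10.12 to 10.63 in sham at 6 weeks, and 10.51 to 11.97 in DMM and 10.44 to 11.71 in sham at 1 week. The summed erythroid markers (3 of 3) were 12.59 to 13.43 in DMM and 12.94 to 13.54 in sham at 6 weeks, and 11.06 to 12.72 in DMM and 11.18 to 13.45 in sham at 1 week. The median difference of 6 weeks from 1 week was -0.65 in DMM and -0.54 in sham for the mesenchymal markers. In the same order it was -0.54 and -0.56 for the endothelial markers and -0.28 and -0.46 for the miR-140 arms. For the leukocyte markers it was -0.06 and -0.53, for the erythroid markers 0.86 and 0.78, and for miR-206-3p 0.61 and 0.56. The part of all these in the lower 3p was not tested. The miRNAs most like 3p over the 16 bone arrays were miR-145a-5p (r = 0.912), miR-149-5p (0.911), miR-193b-3p (0.909), miR-365-3p (0.909) and miR-99b-5p (0.905). miR-145a-5p is a miRNA of smooth muscle and fibroblasts. It was also in the list of miRNAs studied in chondrocytes, as were miR-193b-3p and miR-365-3p. miR-140-3p stood at 0.65, rank 80 of 489, and miR-140-5p at 0.59, rank 105.

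The DMM effect on 3p was compared between tissues in 1 fit over all 28 arrays and 359 shared miRNAs. The effect in cartilage minus that in bone was -0.50 ± 0.35 at 1 week (SE, 95% interval -1.23 to 0.23, limma adjusted p = 0.582, unadjusted 0.169). At 6 weeks it was 0.05 ± 0.35 (95% interval -0.68 to 0.77, adjusted p = 0.996). With array weights the values were -0.064 (adjusted p = 0.929) at 1 week and 0.55 (adjusted p = 0.165) at 6 weeks. The value at 1 week was -0.28 without sham mouse WT68 and -0.65 without DMM mouse WT77. In these comparisons 0.279% and 0.557% of miRNAs passed at 1 and 6 weeks. So the lower 3p of DMM cartilage at 1 week is not shown to be particular to cartilage.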

How the data were processed

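The deposited table holds log2 signals made by the authors, with values from 4.08 to 16.7. The log base is taken from that range. Per the submitters' processing notes limma 3.20.9 was used. Details of background correction, normalization, row filter, slides and scans were not given in the sources used here. Of 569 rows, 438 had values in cartilage, 490 in bone and 359 in both, and 0 value columns went unused. Deposited values were fitted as they were with limma 3.58.1 in R 4.3.3, a group-means model over the arrays of 1 tissue, with Benjamini-Hochberg adjustment over all miRNAs and a threshold of 0.05. Comparisons between tissues used all 28 arrays, and pools and mice shared 1 estimate of spread. The 12 comparisons and the exact tests were checked on simulated data. Python 3.11.15 gave the exact permutation tests and ViennaRNA 2.7.2 the duplex. RefSeq sequences matched 466 of 569 names. The miR-455 rows, marker lists and chondrocyte list were chosen with earlier results of these data known. The text names both arms, the 5 miRNAs most like each arm by Pearson r and members of the lists. P-values rest on the spread of pools for cartilage and of single mice for bone, and the number of arrays limits precision. Tried as alternatives were centring at the 75th percentile, quantile normalization, no dim rows, a trend and robust prior, array weights, other array sets, a replicate block and leaving out each array.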

Additional observations from a re-analysis of the deposited data

How the results depend on the processing

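Each result was refitted under the alternatives, and no cause of a change was tested. The call for 5p in cartilage at 1 week held in 4 of 7 alternatives and in 5 of 12 fits that left out 1 array. It was lost with dim rows left out (-0.40, limma adjusted p = 0.0539), with the arrays of the 2 groups alone (-0.40, 0.0581) and with the replicate block (-0.40, 0.0881). For 3p there, a call appeared in 2 of 8 alternatives, centring on the 75th percentile (-0.55) and the 2 groups alone (-0.46). It also appeared in 1 of 12 fits that left out 1 array. The labels do not say whether the replicate numbers pair the cartilage pools. Deviations of same-numbered DMM and sham pools from their group means correlated at -0.48 to 0.03, which with 3 pools a group cannot settle it. The block changed no other call of miR-455.

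Signs turned for 3p in cartilage at 6 weeks with quantile normalization (0.054), for 5p in sham cartilage at 6 weeks against 1 week with quantile normalization (0.024), centring (0.012) and array weights (0.091), and for 3p in bone at 1 week with array weights (-0.31). With array weights, 3p in DMM bone at 6 weeks against 1 week passed (-0.68), in a fit that called 274 of 490 miRNAs against 0 without weights. Weights also moved 3p in bone at 6 weeks to -0.53, and the DMM effect in cartilage minus that in bone to -0.064 at 1 week and 0.55 at 6 weeks. The weights were estimated without full convergence in some fits.

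With 1 array left out, the differences ranged from -0.55 to -0.37 for 3p and -0.51 to -0.28 for 5p in cartilage at 1 week, -0.23 to 0.10 and -0.15 to 0.0060 at 6 weeks, and -0.16 to 0.026 and -0.12 to 0.11 in sham over time. In DMM over time they were 0.16 to 0.48 for 3p and 0.25 to 0.40 for 5p, and for the change of the effect 0.23 to 0.56 and 0.20 to 0.43. For 3p in bone they were -0.17 to 0.20 at 1 week, -0.24 to 0.075 at 6 weeks and -0.28 to 0.11 for the change. Between tissues they were -0.65 to -0.28 at 1 week and -0.16 to 0.22 at 6 weeks. The arm difference ranged from -0.18 to 0.14 at 1 week, -0.12 to 0.16 at 6 weeks and -0.086 to 0.099 over both.

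The count of miRNAs past the threshold in cartilage was 122 at 1 week (42 to 141 with an array left out, lowest without DMM pool 3 at 42 and sham pool 3 at 56 of that week, 54 of 219 without dim rows, 27 of 359 with all 28 arrays) and 74 at 6 weeks (166 without sham pool 1 of that week, 27 without sham pool 2, 31 without sham pool 3, 44 without DMM pool 1, 20 without DMM pool 2, 189 with array weights, 29 with the 2 groups alone, 2 with all 28 arrays, 43 with the block). For DMM at 6 weeks against 1 week it was 21 (6 to 30 with an array left out, 6 to 13 without any 1 of the 6 DMM pools and 10 without sham pool 2 of week 1, 35 with quantile normalization, 34 with centring, 32 with array weights, 12 with the 2 groups alone, 6 of 219 without dim rows, 2 with all 28 arrays, 7 with the block).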

Other observations

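In bone, miR-455-3p was set beside the marker miRNAs of several cell types over the 16 arrays, as descriptions over arrays that share 4 groups. Its correlation was 0.70 with the summed fibroblast or mesenchymal markers, 0.64 with the summed miR-140 arms, 0.52 with the endothelial markers, 0.29 with the leukocyte markers and -0.19 with the erythroid markers. With miR-206-3p, the only muscle marker measured in bone, it was -0.79. The median correlation of 3p with all single miRNAs of bone was 0.08, and miR-140-3p at 0.65 ranked 80 of 489. Mouse WT68, the sham bone array of 1 week that stood farthest from its group, had the lowest 3p signal of that group (5.21).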
